A study of Mus musculus with 6 samples.

Results

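The transcripts of p53, of its regulators and of direct p53 target genes were followed in small pre-B cells from mouse bone marrow. The set comprised 10 genes chosen by symbol: Trp53, Mdm2, Mdm4, Ccng1, Cdkn1a, Trp53inp1, Zmat3, Sesn1, Phlda3 and Gadd45a. All 10 were among the 49997 gene symbols of the count table and all had at least 1 count, and 7 of them had enough counts to be tested. RNA came from flow-sorted cells of wild-type (WT) C57BL/6 mice and of C57BL/6 mice with the ΔrsCBE genotype, aged 6 to 12 weeks, with 3 libraries per genotype. No treatment was given to either group in the labels. The labels name neither the interval deleted in ΔrsCBE nor the number of mice behind a library, so p-values measure the spread between these libraries, which may be in part technical.

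Small pre-B cells have largely left the cell cycle and rearrange their light chain genes, a process in which the Rag recombinase cuts DNA. The libraries still held transcripts of cell-cycle genes, which are given below. DNA breaks activate the kinase Atm, which stabilises p53, a transcription factor that is held low by the ubiquitin ligase Mdm2 and its relative Mdm4. Because p53 is controlled mainly at the protein level, its activity is usually read from its target genes: Cdkn1a (the cell-cycle inhibitor p21), Mdm2 itself as a feedback inhibitor, and genes for growth arrest, repair and cell death.

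The bases before the start site are shown for 3 targets, because a p53 motif near the start is a feature commonly looked for in a direct target. The motif searched was the 10-base unit of the p53 site, in the 250 bases before each start site of the RefSeq promoter table (build GRCm38.p6). The unit reads the same on both strands. A full p53 site is a pair of units no more than 13 bases apart, and 1 unit alone is not a full site. Promoters were found for 8 of the 10 genes, with 11 start sites. Of those windows 6, in 6 genes, held the unit at least 1 time, and 1 held a full site. Of all 32851 windows of the same length, 7.13% held the unit. Capitals mark the unit.
Cdkn1a (chr17:29090729-29090978, plus strand): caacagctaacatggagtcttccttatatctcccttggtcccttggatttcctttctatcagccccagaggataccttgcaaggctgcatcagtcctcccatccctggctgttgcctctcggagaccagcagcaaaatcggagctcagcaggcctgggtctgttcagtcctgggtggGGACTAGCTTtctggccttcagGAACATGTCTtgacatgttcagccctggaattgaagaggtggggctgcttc
Mdm2 (chr10:117710759-117711008, minus strand): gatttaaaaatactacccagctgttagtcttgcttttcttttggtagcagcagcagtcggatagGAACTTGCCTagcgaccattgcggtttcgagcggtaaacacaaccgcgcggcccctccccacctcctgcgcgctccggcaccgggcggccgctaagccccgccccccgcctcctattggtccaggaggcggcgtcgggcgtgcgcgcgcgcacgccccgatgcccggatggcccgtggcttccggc
Ccng1 (chr11:40755287-40755536, minus strand): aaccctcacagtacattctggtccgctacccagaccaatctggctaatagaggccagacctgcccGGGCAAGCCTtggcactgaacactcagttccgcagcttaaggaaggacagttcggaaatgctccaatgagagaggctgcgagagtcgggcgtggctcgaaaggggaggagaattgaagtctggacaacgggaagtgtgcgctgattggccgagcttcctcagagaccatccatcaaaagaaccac
The Cdkn1a window shown held the unit at 73 and 51 bases before the start, separated by 12 bases. Only exact matches were marked. The 10 bases right after the copy at 51 bases, tgacatgttc, differ from the unit at their first base and stay in lower case. The window of the second Cdkn1a start site (chr17:29093519-29093768) held 0 copies. A full site occurred in 0.0639% of all windows. The Mdm2 window held 1 copy at 186 bases and the Ccng1 window 1 copy at 185 bases before the start, and neither held a full site. A match describes the letters of the sequence, and binding of p53 was not measured.

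Total counts lay between 428106 and 1300805 per library, which is shallow, so that 3 counts, taken as the smallest detectable amount, equal 2.38 to 7.36 CPM (counts scaled to a common library size). All 10 markers of small pre-B cells were tested, including Rag1, Pax5 and Il2ra. Their summed level was 11902 to 14090 CPM in WT and 12823 to 13367 CPM in ΔrsCBE. Of the 10, 6 had a log2 fold change above 0 and 4 below, and 0 passed an edgeR adjusted p under 0.05. An unadjusted p under 0.05 in edgeR was found for 3 of the 10, against 10.2% of all tested genes. These were Cd79a, Cd24a and Vpreb3, with log2 fold changes of -0.24, -0.25 and 0.53. The groups did not overlap for 2 of the 10 (20%), against 16.1% of all tested genes. Of 8 T and NK cell markers 6 were at 0 in every library, as were 6 of 8 erythroid markers, and neither list exceeded 2.53 CPM in sum. The 9 myeloid markers summed to 55.4 to 88.3 CPM in WT and 61.7 to 75.8 CPM in ΔrsCBE, mostly Itgam, with S100a8 and Elane at 0. Lyz2 and S100a9 had 0 counts in each WT library and 2, 4 and 2, and 2, 1 and 3 counts, in the ΔrsCBE libraries. The 7 mature B cell markers summed to 459 to 574 and 440.3 to 491 CPM, with Ighd at 0. The 6 plasma cell markers summed to 1133 to 1258 and 1134 to 1430 CPM, mostly Irf4, with Tnfrsf17 at 0. Of these, Xbp1 averaged 38.7 CPM in WT against 57.2 in ΔrsCBE. The groups did not overlap, and the difference did not pass the test (log2 fold change 0.58, edgeR adjusted p = 0.294). The 7 pro-B and large pre-B cell markers summed to 1357 to 1405 and 1365 to 1514 CPM. The libraries were not matched for sex, which the labels do not give: ΔrsCBE replicates 2 and 3 had 1603 and 1430 Xist counts and 0 counts of Y-linked genes, whereas the other 4 libraries had at most 1 Xist count. The mitochondrial share of counts was 9.07%, 11.3% and 10.8% in WT and 8.87%, 8.90% and 8.83% in ΔrsCBE, without overlap. The part of these differences in the results was not tested.

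Per kilobase of annotated exon, the set spanned a wide range of levels. Trp53inp1, which promotes p53-dependent arrest and autophagy, was highest, at 103 to 133 CPM per kb across the 6 libraries. Mdm2 followed at 36.1 to 44.5 and Mdm4 at 21.7 to 24.8 CPM per kb, and the ranges of these 3 genes did not overlap. Ccng1 (16.6 to 20.9 CPM per kb), Gadd45a (13.7 to 20.9), Trp53 (10.8 to 19.2) and Sesn1 (8.82 to 14.2) came next, and neighbours in this order overlapped, so their order is not fixed by these data. The classical arrest gene Cdkn1a was lower than all of these, at 0.355 to 4.11 CPM per kb. Phlda3 (0 to 1.57 CPM per kb) and Zmat3 (0.142 to 0.953) were the lowest, with ranges that overlapped each other and that of Cdkn1a. Zmat3 and Cdkn1a had similar mean levels before division by length, 6.68 and 6.91 CPM. The lower place of Zmat3 thus comes from its 11.4 kb of annotated exon. Which of its transcripts were present was not determined. The regulators of p53 were thus well measured, while 3 of its target genes lay near the detection floor.

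**Figure D1:**
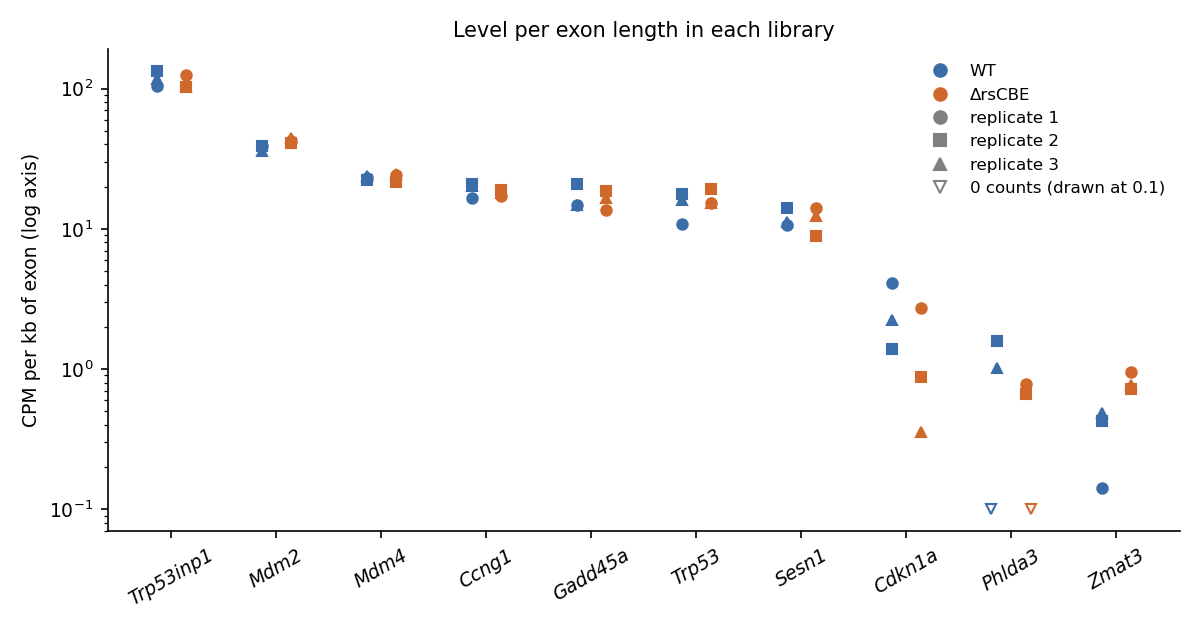
Level of each of the 10 genes in CPM per kb of exon, on a log axis, with 1 symbol per library. Trp53inp1 stood highest at 103 to 133 CPM per kb and Cdkn1a, Phlda3 and Zmat3 stayed at or below 4.11 CPM per kb. Libraries with 0 counts of Phlda3 are drawn as open triangles at 0.1.

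The first question was whether p53 or the proteins that restrain it differ between the genotypes. Trp53 (chromosome 11, 69580359 to 69591873, plus strand, GENCODE M21 on GRCm38) had 43.8, 71.1 and 64.9 CPM in the WT libraries (replicates 1 to 3, always in this order) against 61.7, 77.5 and 61.9 CPM in ΔrsCBE. The groups overlapped, and WT replicate 1 was the lowest library. The log2 fold change of ΔrsCBE over WT was 0.17 (standard error, SE, 0.21, edgeR adjusted p = 0.857), a ratio of 1.13 with a 95% interval of 0.831 to 1.52. Without WT replicate 1 the log2 fold change was 0.01. The table also lists the pseudogene Trp53-ps, with 57 counts in all, so reads shared with it make the Trp53 level uncertain.

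Mdm2 (chromosome 10, 117688875 to 117710758, minus strand), which ubiquitinates p53 and is induced by it, had 198, 199 and 184 CPM in WT and 215, 208 and 226 CPM in ΔrsCBE. All ΔrsCBE libraries lay above all WT libraries, which was also the case, in either direction, for 16.1% of all tested genes. The difference was small and did not pass the test: the log2 fold change was 0.17 (SE 0.13, edgeR adjusted p = 0.746), a ratio of 1.12 with a 95% interval of 0.932 to 1.36. Mdm4 (chromosome 1, 132959484 to 133030561, minus strand), which masks the activation domain of p53, had 339, 331 and 350.0 CPM in WT and 359, 320.4 and 366 CPM in ΔrsCBE. The Mdm4 groups overlapped, with ΔrsCBE replicate 2 the lowest and replicate 3 the highest library. Its log2 fold change was 0.03 (SE 0.12, edgeR adjusted p = 0.972), and the 95% interval of the ratio, 0.866 to 1.20, was narrower than those of Trp53 and Mdm2.

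**Figure D2:**
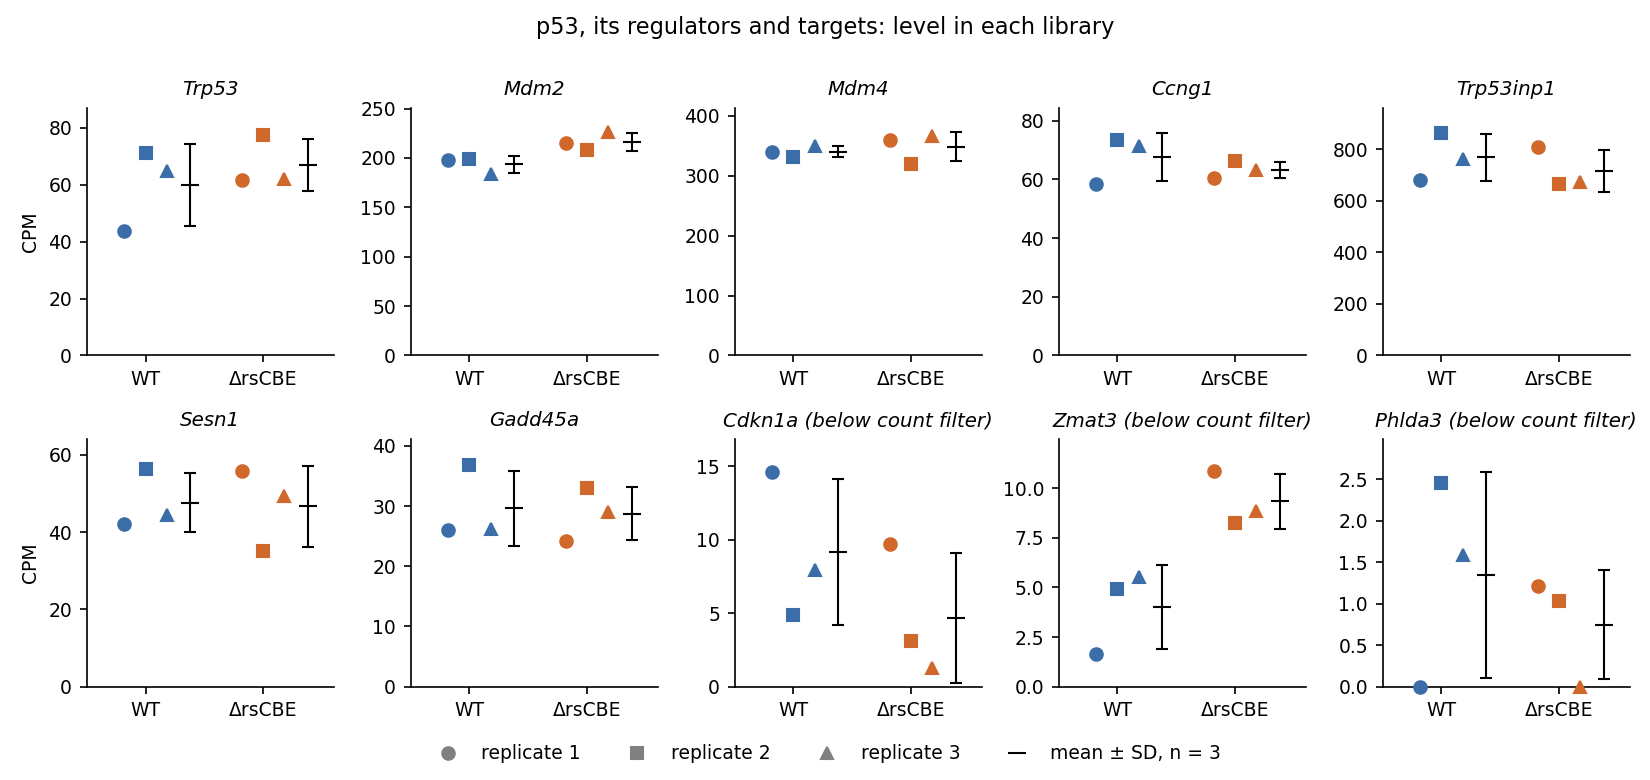
CPM of each gene in the 3 WT (blue) and 3 ΔrsCBE (orange) libraries, with a symbol for each replicate and the mean ± SD beside them; each panel has its own axis from 0. The groups overlap for Trp53, Mdm4, Ccng1, Trp53inp1, Sesn1, Gadd45a, Cdkn1a and Phlda3, and do not overlap for Mdm2 and Zmat3.

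The target genes that could be tested were compared next. Ccng1 (chromosome 11, 40748552 to 40755311, minus strand) encodes cyclin G1, a p53-induced partner of a phosphatase that acts on Mdm2. It had 58.4, 73.6 and 71.3 CPM in WT and 60.5, 66.1 and 63.1 CPM in ΔrsCBE, and the ΔrsCBE values lay inside the WT range. Its log2 fold change was -0.10 (SE 0.20, edgeR adjusted p = 0.931, 95% interval of the ratio 0.707 to 1.24).

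Trp53inp1 (chromosome 4, 11156431 to 11174379, plus strand) had the highest CPM of the set, 681, 863 and 762 CPM in WT and 809, 665 and 674 CPM in ΔrsCBE. The highest libraries were WT replicate 2 and ΔrsCBE replicate 1, and the groups overlapped. The log2 fold change was -0.10 (SE 0.11, edgeR adjusted p = 0.838), and the 95% interval of the ratio ran from 0.797 to 1.09. With sex as a covariate, where the genotype effect rests on ΔrsCBE replicate 1 against the male WT libraries, the sign turned (log2 fold change 0.08).

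Sesn1 (chromosome 10, 41809935 to 41908424, plus strand), a sestrin that restrains mTORC1 signalling, had 42.2, 56.4 and 44.3 CPM in WT and 55.7, 35.1 and 49.3 CPM in ΔrsCBE. WT replicate 2 and ΔrsCBE replicate 1 were again the highest libraries, and ΔrsCBE replicate 2 was the lowest. Its log2 fold change was -0.0038 (SE 0.24, edgeR adjusted p = 0.999), but the 95% interval of the ratio, 0.709 to 1.40, leaves room for a change in either direction.

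Gadd45a (chromosome 6, 67035096 to 67037457, minus strand), a stress protein that acts in growth arrest and DNA repair and is also induced without p53, had 26.0, 36.8 and 26.1 CPM in WT and 24.2, 33.1 and 29.0 CPM in ΔrsCBE. The groups overlapped almost fully. The log2 fold change was 0.02 (SE 0.29, edgeR adjusted p = 0.991, 95% interval of the ratio 0.672 to 1.53), the widest interval of the 7 tested genes. Gadd45a shares exon sequence on the opposite strand with E230016M11Rik, which had 6 counts in all.

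The 3 remaining targets fell below the count filter and are given as counts. Cdkn1a (chromosome 17, 29090976 to 29100727, plus strand) had 9, 2 and 10 counts in WT and 8, 3 and 1 counts in ΔrsCBE, or 14.6, 4.90 and 7.92 against 9.68, 3.10 and 1.26 CPM. ΔrsCBE replicates 2 and 3 were the lowest libraries, and ΔrsCBE replicate 1 lay within the WT range. The ratio of the summed levels was 0.505 with a 95% exact interval of 0.227 to 1.08, which covers counting error only. Its exons overlap AC167363.2 on the opposite strand in GENCODE M21, a symbol for which no counts were listed. In the fit without a count filter its log2 fold change was -0.97 (SE 0.62, edgeR adjusted p = 0.751).

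Zmat3 (chromosome 3, 32334792 to 32366014, minus strand), an RNA-binding zinc finger protein and p53 target in tumour suppression, had 1, 2 and 7 counts in WT and 9, 8 and 7 counts in ΔrsCBE. Scaled to depth, they were 1.62, 4.90 and 5.54 CPM in WT and 10.9, 8.27 and 8.84 CPM in ΔrsCBE, and the groups did not overlap. The ratio of the summed levels was 2.12 with a 95% exact interval of 0.979 to 4.97 (counting error only). The fit without a count filter gave a log2 fold change of 1.09 (SE 0.63, edgeR adjusted p = 0.751), so the difference did not pass the test. Phlda3 (chromosome 1, 135766119 to 135769136, plus strand), a p53-induced inhibitor of Akt, had 0, 1 and 2 counts in WT and 1, 1 and 0 counts in ΔrsCBE. No library reached 3 counts, and a difference in Phlda3 was not detectable at this depth.

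Across the set, 0 of 7 tested genes passed an adjusted p under 0.05 by edgeR's quasi-likelihood test, against 1.69% of all 7792 tested genes. None of the 7 had an unadjusted p under 0.05 in edgeR or in the DESeq2 Wald test, against 10.2% of all tested genes in edgeR. With no count filter all 10 were tested, and again 0 passed and 0 had an unadjusted p under 0.05. Of the 7 genes, 4 had a log2 fold change above 0 and 3 below, with a median of 0.02 and a range from -0.10 to 0.17, and the median of all tested genes was 0.01. The standard errors of 0.11 to 0.29 set what could be seen: among the 5217 tested genes of the same range of abundance, the median absolute log2 fold change was 0.16, and 46.7% exceeded the largest value of the set.

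Variation between libraries of 1 genotype differed among the genes. The coefficient of variation was 4.35% in WT and 4.26% in ΔrsCBE for Mdm2 and 2.80% and 7.10% for Mdm4. It was 23.9% and 13.5% for Trp53, 20.9% and 15.4% for Gadd45a and 16.1% and 22.5% for Sesn1, all of which had fewer counts. The medians of the 5217 tested genes in the range of the set, from 29.2 to 742 CPM, were 13.8% and 13.7%. Mdm2 and Mdm4, at 205 and 344 CPM, were not compared with genes of their own level. WT replicate 1 lay below the mean of the 6 libraries for each of the 7 tested genes, by 0.51 on the log2 scale for Trp53 and by 0.02 to 0.16 for the others. The summed level of the 10 genes was 1405 to 1643 CPM in WT and 1417 to 1607 CPM in ΔrsCBE, and most of it was Trp53inp1 and Mdm4.

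Further direct targets of p53 were then examined to see whether the 10 genes stood for the wider programme. Of 49 such genes 43 had counts and 25 were tested. Plk2 rose and Plxnb2 fell, so that 1 passed the threshold in each direction, against 0.205% of all tested genes for a rise and 1.49% for a fall. The median log2 fold change was 0.02, with 14 genes above 0 and 11 below. An unadjusted p under 0.05 in edgeR was found for 5 of the 25, against 10.2% of all tested genes. The groups did not overlap for 5 of the 25 (20%), against 16.1% of all tested genes. The summed level of the 49 genes was 2329 to 2533 CPM in WT and 2337 to 2704 CPM in ΔrsCBE.

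Growth-arrest targets held both calls. Plk2, a polo-like kinase that is also induced within minutes by growth factors, had 82.7, 61.3 and 108 CPM in WT and 148, 117 and 197 CPM in ΔrsCBE. The groups did not overlap, and the log2 fold change was 0.78 (SE 0.20, edgeR adjusted p = 0.0480). Plxnb2, a semaphorin receptor, had 64.9, 56.4 and 52.3 CPM in WT and 41.2, 21.7 and 22.7 CPM in ΔrsCBE. ΔrsCBE replicates 2 and 3, the libraries with the female pattern, were lowest, and the log2 fold change was -1.01 (SE 0.26, edgeR adjusted p = 0.0451). With sex as a covariate the Plxnb2 value was -0.47 (edgeR adjusted p = 0.645) and the Plk2 value 0.71 (edgeR adjusted p = 0.307). Neither call was made by the DESeq2 Wald test, where the adjusted p was 0.0842 for Plk2 and 0.170 for Plxnb2. Over 13 alternatives Plk2 was called in 7 and Plxnb2 in 6, and the adjusted p ranged from 0.00106 to 0.412 for Plk2 and from 0.00559 to 0.645 for Plxnb2. The Plk2 call was lost without WT replicate 1, WT replicate 2, ΔrsCBE replicate 1 or ΔrsCBE replicate 3 (edgeR adjusted p 0.191, 0.196, 0.0734 and 0.412). The Plxnb2 call was lost without any 1 of the libraries other than ΔrsCBE replicate 1 (edgeR adjusted p from 0.0998 to 0.281).

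Btg2, an anti-proliferative gene with the highest CPM of the further targets, had 584, 586 and 565 CPM in WT and 746, 591 and 769 CPM in ΔrsCBE. The groups did not overlap, but ΔrsCBE replicate 2 lay next to WT, and the log2 fold change of 0.28 (SE 0.11) did not pass the test (edgeR adjusted p = 0.320). Plk2 and Btg2 share stimuli with the early-response genes. The early-response list was chosen knowing that such genes were higher in ΔrsCBE in these data, and is no independent evidence of that direction. Of that list 4 of 11 tested genes, Jun, Fos, Klf2 and Jund, rose and 0 fell, against 0.205% and 1.49% of all tested genes. Leaving out ΔrsCBE replicate 2 gave 8 such genes and leaving out ΔrsCBE replicate 3 gave 2. The summed level of its 16 genes was 2898 to 3454 CPM in WT and 6039, 4169 and 5685 CPM in ΔrsCBE replicates 1 to 3. The part of this difference in the Plk2 and Btg2 values was not tested.

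Cell-death targets gave 0 calls among 8 tested genes, with 0 unadjusted p under 0.05 in edgeR, and the DESeq2 Wald test called 0 of all 25 further targets. Bbc3 (Puma), a pro-apoptotic BH3-only protein, had a log2 fold change of 0.56 ± 0.43 (SE), and Pidd1, which drives caspase activation, one of -0.69 (SE 0.40, edgeR adjusted p 0.743 and 0.603). Pml, the organiser of PML nuclear bodies, came after Btg2 in CPM among the further targets, with 349, 358 and 318 CPM in WT and 505, 332 and 340 CPM in ΔrsCBE. Its high value was that of ΔrsCBE replicate 1, the male library, and its log2 fold change was 0.21 (SE 0.14, edgeR adjusted p = 0.678). In the fit with sex as a covariate it was called at 0.58 on the log2 scale (edgeR adjusted p = 0.0387), and that value rests on this library alone.

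Repair and metabolic targets gave 0 calls among 8 tested genes, with 1 unadjusted p under 0.05 in edgeR. Ercc5, a nuclease of nucleotide excision repair, had 33.6 ± 7.87 CPM in WT against 52.3 ± 5.97 CPM (SD, n = 3), without overlap, but its log2 fold change of 0.58 did not pass the test (edgeR adjusted p = 0.345). Polh, a translesion DNA polymerase, had 38.8 ± 17.9 and 22.4 ± 8.52 CPM with overlapping groups, and its fold change was -0.68 on the log2 scale (edgeR adjusted p = 0.504).

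**Figure D3:**
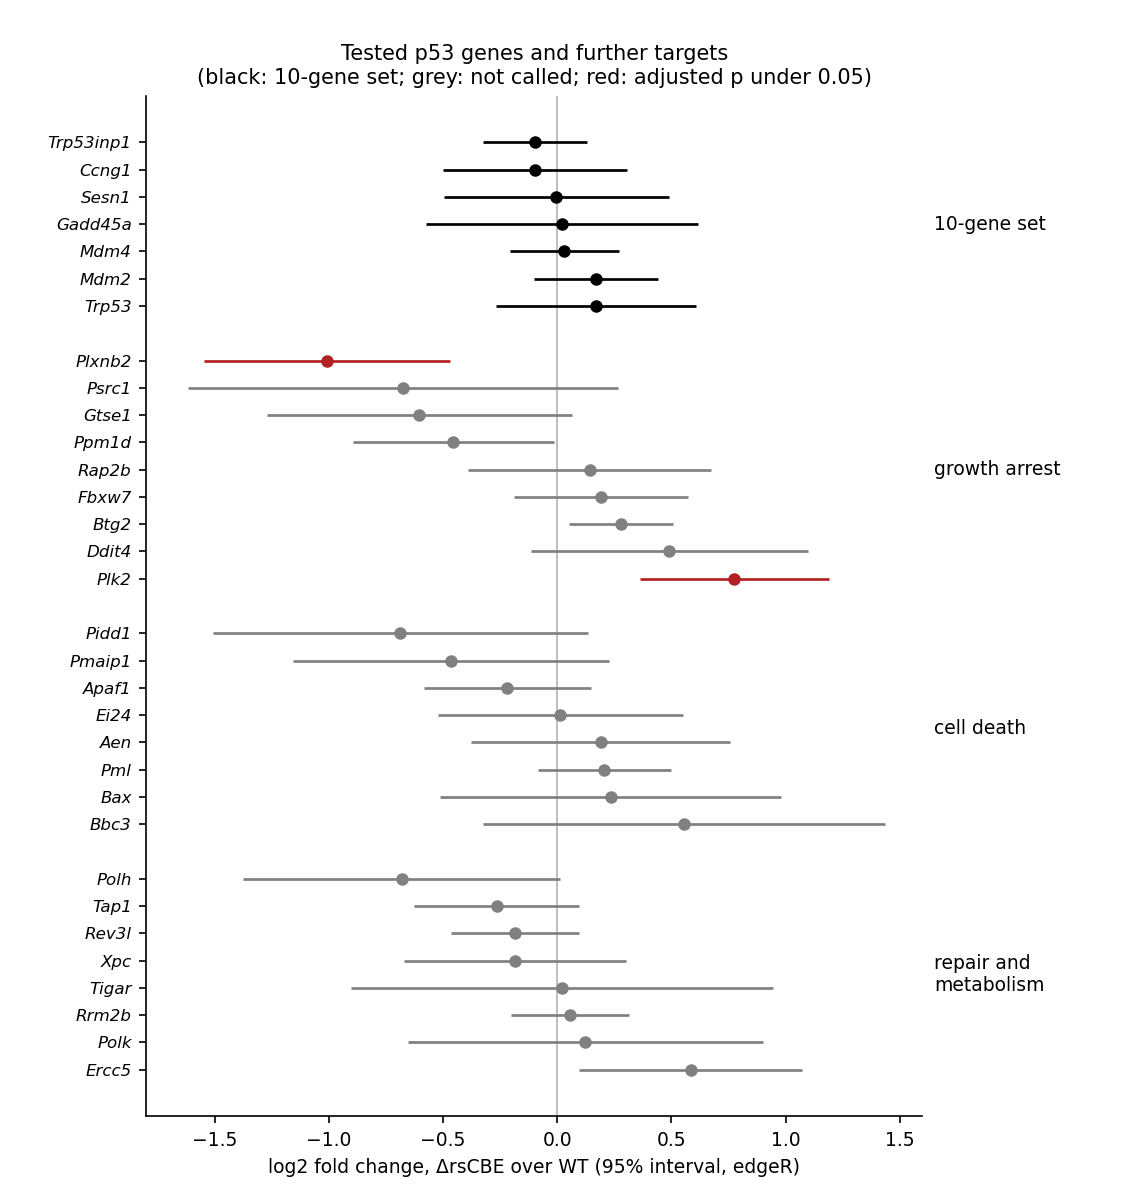
Log2 fold change of ΔrsCBE over WT with its 95% interval for the 7 tested genes of the set (black) and the 25 tested further p53 targets (grey, or red where past the threshold), by function. The set lies between -0.10 and 0.17, and Plxnb2 at -1.01 and Plk2 at 0.78 are the 2 red points.

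Genes that signal breaks or replication stress to p53 were compared, because Rag cuts are sensed through some of them. Of 17 sensors and kinases 14 were tested, and 1 fell and 0 rose, against 1.49% and 0.205% of all tested genes. Of the 14, 12 had a log2 fold change below 0, with a median of -0.22. Among all tested genes 48.2% lay below 0. H2ax, the histone variant phosphorylated around DNA breaks, had 167, 248 and 186 CPM in WT and 79.9, 103 and 60.6 CPM in ΔrsCBE, without overlap. Its log2 fold change was -1.26 (SE 0.18, edgeR adjusted p = 0.000182), and it was called in each of 13 alternatives. Atr, the kinase of replication stress, had 48.5 ± 11.2 CPM in WT against 28.5 ± 1.79 CPM (SD, n = 3), and its log2 fold change of -0.69 did not pass the test (edgeR adjusted p = 0.270). Atm, named for its role at Rag breaks and outside the naming rule, had 144 ± 23.5 and 143 ± 20.7 CPM, and its fold change was -0.02 on the log2 scale (edgeR adjusted p = 0.987).

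Of 25 further regulators and relatives of p53, 18 were tested and 0 passed the threshold, against 1.69% of all tested genes. There was 1 unadjusted p under 0.05 in edgeR and in the DESeq2 Wald test, against 10.2% of all tested genes in edgeR. Their median log2 fold change was 0.01. Kmt5a, a methyltransferase that modifies p53 and histone H4, had 110, 157 and 124 CPM in WT and 69.0, 101 and 77.0 CPM in ΔrsCBE. The groups did not overlap, and the log2 fold change was -0.63 (SE 0.18, edgeR adjusted p = 0.0919). It passed the threshold in 2 of 13 alternatives, without ΔrsCBE replicate 2 and with the replicate block (edgeR adjusted p = 0.0141 and 0.0445). Banp, a nuclear-matrix protein that binds p53, had a log2 fold change of 0.43 (SE 0.24, edgeR adjusted p = 0.603). The p53 relatives Trp63 and Trp73 had 1 and 0 counts in all and the p53 activator locus Cdkn2a 0 counts, too few for any comparison.

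Cell-cycle genes that p53 is known to lower through p21 and the DREAM repressor complex were set beside the set. This list was chosen knowing that cell-cycle genes were lower in ΔrsCBE in these data, and is no independent evidence of that direction. Of 24 genes 20 were tested, and 13 fell and 0 rose, against 1.49% and 0.205% of all tested genes. The median of the 20 was -1.02 on the log2 scale. The summed level of the 24 genes was 6115, 6859 and 6437 CPM in WT and 2820, 4141 and 2662 CPM in ΔrsCBE replicates 1 to 3. Mki67, given outside the naming rule, averaged 3569 CPM in WT and 1822 CPM in ΔrsCBE. Top2a, also outside it, averaged 1108 and 482 CPM. Transcripts of cycling cells were thus present in both groups. Ccna2 (cyclin A2) fell from 204 ± 17.0 to 85.5 ± 12.4 CPM, and Bub1, a checkpoint kinase, from 45.4 ± 8.84 to 15.0 ± 4.05 CPM (SD, n = 3). The edgeR adjusted p-values were 4.17e-05 and 0.00216. The count of 13 was 6 without WT replicate 3, 7 without ΔrsCBE replicate 3 and 6 with sex as a covariate, where the medians were -0.94, -1.01 and -1.23 on the log2 scale. Cdkn1a, through which this repression is known to run, had 33 counts in all and fell below the count filter. Its highest value, 14.6 CPM in WT replicate 1, was 9 counts. Its lowest, 1.26 CPM in ΔrsCBE replicate 3, was 1 count, under the floor of 3.79 CPM of that library. The Cdkn1a groups overlapped, and a link between Cdkn1a and the cell-cycle genes was not tested. In sorted samples a smaller share of cycling cells and less RNA per cell cannot be told apart. H2ax and Kmt5a are known to vary with the cell cycle. The part of the cell-cycle difference in their values, and in those of the sensors and kinases, was not tested.

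**Figure D4:**
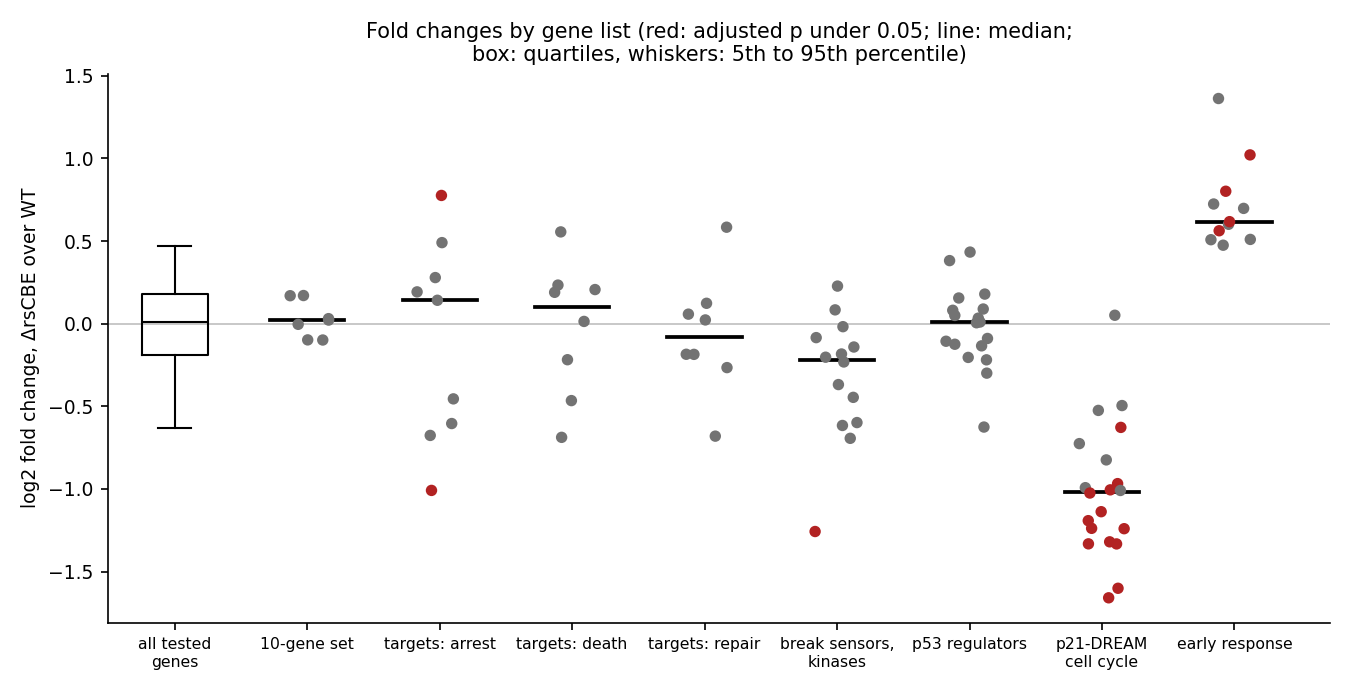
Log2 fold change of ΔrsCBE over WT for each tested gene of 8 lists, with the list median as a line, beside a box for all 7792 tested genes. The set has its median at 0.02, the p21-DREAM cell-cycle genes at -1.02 and the early-response genes at 0.62.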

How the data were processed

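The deposited table holds whole-number read counts per gene symbol for 6 libraries, 3 WT and 3 ΔrsCBE, with no normalization by the authors. Per the labels' protocols, the kit was strand-specific and took total RNA freed of ribosomal RNA. The submitters' processing notes name Trim Galore 0.6.10, STAR 2.7.11, HTSeq and DESeq2 and the build mm10. The strand setting, annotation and filters are not given in the sources used here. Columns were assigned by the library name in the labels.

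Counts were tested with edgeR 4.0.16 in R 4.3.3: filterByExpr (minimum count 10) kept 7792 genes, TMM factors were applied, and glmQLFit (robust) and glmQLFTest were fitted with genotype as the sole factor. Benjamini-Hochberg adjustment ran over all tested genes, with a threshold of 0.05. Standard errors and 95% intervals derive from the quasi-likelihood F statistic. CPM use the totals of the tested genes times the TMM factors. Exon lengths and gene coordinates are from GENCODE M21 (union of exons). Of the 49997 listed symbols, all were in RefSeq and 37981 in GENCODE M21, so the exons counted may differ from those used for lengths. Ratios of summed counts have exact conditional binomial intervals (scipy 1.17.1), which cover counting error only. The fit was tested on simulated data whose changes were larger than any among the tested genes of the set. That test therefore does not show whether changes of the size seen in the set could be detected.

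The genes and lists were chosen with earlier results of these data known. The text names the 10 genes, and of each other list the genes past the threshold (at most 4), the 2 with the largest absolute log2 fold change and, of the further p53 targets, the 2 most abundant; for the cell-cycle and early-response lists only some of these are given. Alternatives were DESeq2 size factors, library size alone, the DESeq2 1.42.0 Wald test, no count filter, a CPM of at least 1 in 3 libraries, a threshold of 0.1, each library left out, the replicate block and a sex covariate.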

Additional observations from a re-analysis of the deposited data

How the results depend on the processing

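Among the 10 genes, 0 passed the threshold under every alternative run (scaling, filter, test, threshold, each library left out, sex covariate), and the lowest adjusted p over 91 refitted values of the 7 tested genes was 0.480. Of these values 77 kept their sign and 14 did not. Without 1 library, Mdm4 ranged from -0.0070 to 0.091, Sesn1 from -0.153 to 0.18 and Gadd45a from -0.095 to 0.155. With the sex covariate Trp53inp1 was 0.079, Sesn1 0.264 and Gadd45a -0.229. Sesn1 was 0.0059 with library size alone, 0.0024 with no count filter and 0.013 with the filter on CPM. The cause of these changes of sign was not tested; each lies within its standard error.

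The count of all genes, 132, was 87 with the sex covariate and 59 to 187 without 1 library (59 without WT replicate 3 and 59 without ΔrsCBE replicate 3). Of these, the 16 higher genes became 25 with no count filter, 31 with the filter on CPM, 30 at an adjusted p under 0.1 and 6 to 44 without 1 library. The count of 2 further p53 targets became 1 with the sex covariate (Pml, with Plk2 and Plxnb2 both lost), 0 with the DESeq2 Wald test and 0 to 1 without 1 library. The count of 0 regulators became 1, Kmt5a, with the replicate block, 1 at an adjusted p under 0.1 and 0 to 1 without 1 library. The count of 13 cell-cycle genes became 6 with the sex covariate (median log2 fold change -1.23 against -1.02) and 6 to 15 without 1 library, and the 4 early-response genes 2 to 8, with 8 without ΔrsCBE replicate 2 and 2 without ΔrsCBE replicate 3. The 1 upstream gene was 1 throughout. The cause was not tested.

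Same-numbered libraries did not deviate together (correlations of 0.01 to 0.02), so no pairing by number was seen. A lack of correlation cannot show that they were handled apart. With the replicate block 136 genes and 0 of the 10 passed, and Sesn1 was 0.00058 and Gadd45a -0.020. Counts under 3 per library limit Phlda3, and in part Cdkn1a and Zmat3.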

Other observations

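The ribosomal protein genes Rpl5 and Rpl11, whose products bind Mdm2 and release p53, had 51 and 16 counts over the 6 libraries and were not tested, and Rps27l, another Mdm2-binding protein and p53 target, had 15. Rpl11 had 3, 3 and 4 counts in WT and 2, 2 and 2 in ΔrsCBE, or 4.87, 7.36 and 3.17 against 2.42, 2.07 and 2.53 CPM, without overlap. The ΔrsCBE counts lay under the 3 counts taken as the smallest detectable amount, so the lack of overlap cannot be read as a difference. In the fit without a count filter the Rpl11 log2 fold change was -0.92 (edgeR adjusted p = 0.751), which did not pass the test. Many ribosomal protein genes have near-identical pseudogene copies, and counts of such genes are uncertain where reads could map to both.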
